A study of Homo sapiens with 6 samples.

Results

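The major histocompatibility complex (MHC) on the short arm of human chromosome 6, at 6p21, was examined for ubiquitylated and total H2A.Z in HEK293T, an established cell line from human embryonic kidney. Peaks of the deposited ubiquitylated and total H2A.Z lists that overlapped or touched were merged into regions, and the members are the merged regions whose midpoint lay between 28.9 and 33.5 Mb of chromosome 6 in the hg19 build. This gave 479 of 198179 regions in all. They were divided by position into class I (28.9 to 31.4 Mb, 251 regions), class III (31.4 to 32.35 Mb, 121 regions) and class II (32.35 to 33.5 Mb, 107 regions). The rule for membership uses position and no measured value.

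The series holds 6 ChIP-seq samples in 3 groups of 2, namely ubiquitylated H2A.Z, total H2A.Z and histone H3. All groups come from the same cell line, per the labels' protocols transfected with H2A.Z-1 fused at its C-terminus to Flag and the biotin ligase BirA, and with AviTag-ubiquitin, and collected 48 hours later. BirA biotinylates the AviTag, so streptavidin agarose recovered nucleosomes with tagged ubiquitin near the fusion histone and Flag M2 agarose recovered all nucleosomes with the fusion histone. The histone is therefore a transfected fusion and not the cells' own H2A.Z, and a biotinylated ubiquitin on a neighbouring protein cannot be told apart from one on H2A.Z. The 2 forms were also recovered with different reagents, and a difference between reagents cannot be told apart from one in ubiquitylation. For each peak or region the lists give 1 value and no value per sample, so read depth is unknown, and the authors' irreproducible discovery rate (IDR) and false discovery rate (FDR) are the only measures of replicate spread. No label says that replicates were separate cultures, so that spread may be technical.

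H2A.Z is a histone H2A variant found at promoters, enhancers and other regulatory sites, and attachment of ubiquitin to its C-terminal tail is known as a mark of silent chromatin, such as that of the inactive X chromosome. The MHC is among the most gene-dense stretches of the human genome. Its class I part holds the genes of the heavy chains that present peptides to cytotoxic T cells, class II holds the chains that present peptides to helper T cells together with peptide loading genes, and class III between them holds complement and cytokine genes among many unrelated ones. Class II genes are normally active in antigen-presenting cells.

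Of 41 genes of the MHC listed for orientation, all 41 were found on chromosome 6 of the RefSeq table. In their order from the end of the short arm towards the centromere, HLA-F, HLA-G, HLA-E, HLA-C and HLA-B were followed by MICA and MICB, ligands of an activating receptor of natural killer cells. Next came the cytokine genes LTA, TNF and LTB, the histone methyltransferase gene EHMT2, and the complement genes C2, CFB, C4A and C4B. HLA-DRA, HLA-DRB1, HLA-DQA1 and HLA-DQB1 came after NOTCH4. They were followed by TAP2, PSMB8, TAP1 and PSMB9, in which peptide transporter genes (TAP2 and TAP1) alternate with immunoproteasome genes (PSMB8 and PSMB9), and then by the bromodomain gene BRD2, HLA-DPA1 and HLA-DPB1. RefSeq listed 47 protein-coding genes between HLA-F and MICB, 61 between MICB and HLA-DRA and 16 between HLA-DRA and HLA-DPB1. The RefSeq table is of GRCh38 and the lists are of hg19, so gene order is given as orientation and no H2A.Z region was assigned to a gene or promoter.

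H2A.Z regions occurred along the whole MHC and were densest in class III. Class III held 127.4 regions per Mb, class I 100.4 and class II 93.0. The 479 regions covered 188 kb or 4.10% of the interval, 5.46% in class III, 3.88% in class I and 3.44% in class II. By comparison, the stretch of equal length towards the chromosome end (24.3 to 28.9 Mb) held 409 regions and that towards the centromere (33.5 to 38.1 Mb) held 691. Among 524 windows of this length over the genome with at least 20 differential regions, the number of merged regions had a median of 258 and quartiles of 145 and 467. Per 100 kb tile the MHC held 2 to 25 regions with a median of 10.0. The tiles at 31.0 to 31.1 Mb in class I and 31.9 to 32.0 Mb in class III each held 25 regions. The longest stretches with no region of either list were chr6:32231494-32343612 (112 kb, in class III next to class II) and chr6:29945210-30053884 (109 kb, class I). Neighbouring regions were separated by a median of 3.17 kb in the MHC, 2.53 kb in class III, 3.54 kb in class I and 4.23 kb in class II, against 2.16 kb over all regions. Of these distances 31.8% were under 1 kb, against 36.6% over all regions.

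Fewer ubiquitylated than total H2A.Z peaks were found in the MHC, 278 against 361. Their ratio was 0.770, where the rest of chromosome 6 had 0.886 and the whole series 0.999. The classes were unequal, with 76 ubiquitylated and 80 total peaks in class III (ratio 0.95), 142 and 193 in class I (0.736), and 60 and 88 in class II (0.682). The lists hold no heights, so these ratios compare numbers of peaks that passed the IDR limit and not amounts of histone. The median IDR was 0.00165 for ubiquitylated and 0.00343 for total peaks of the MHC, and 0.00137 and 0.00335 over the whole series.

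**Figure D1:**
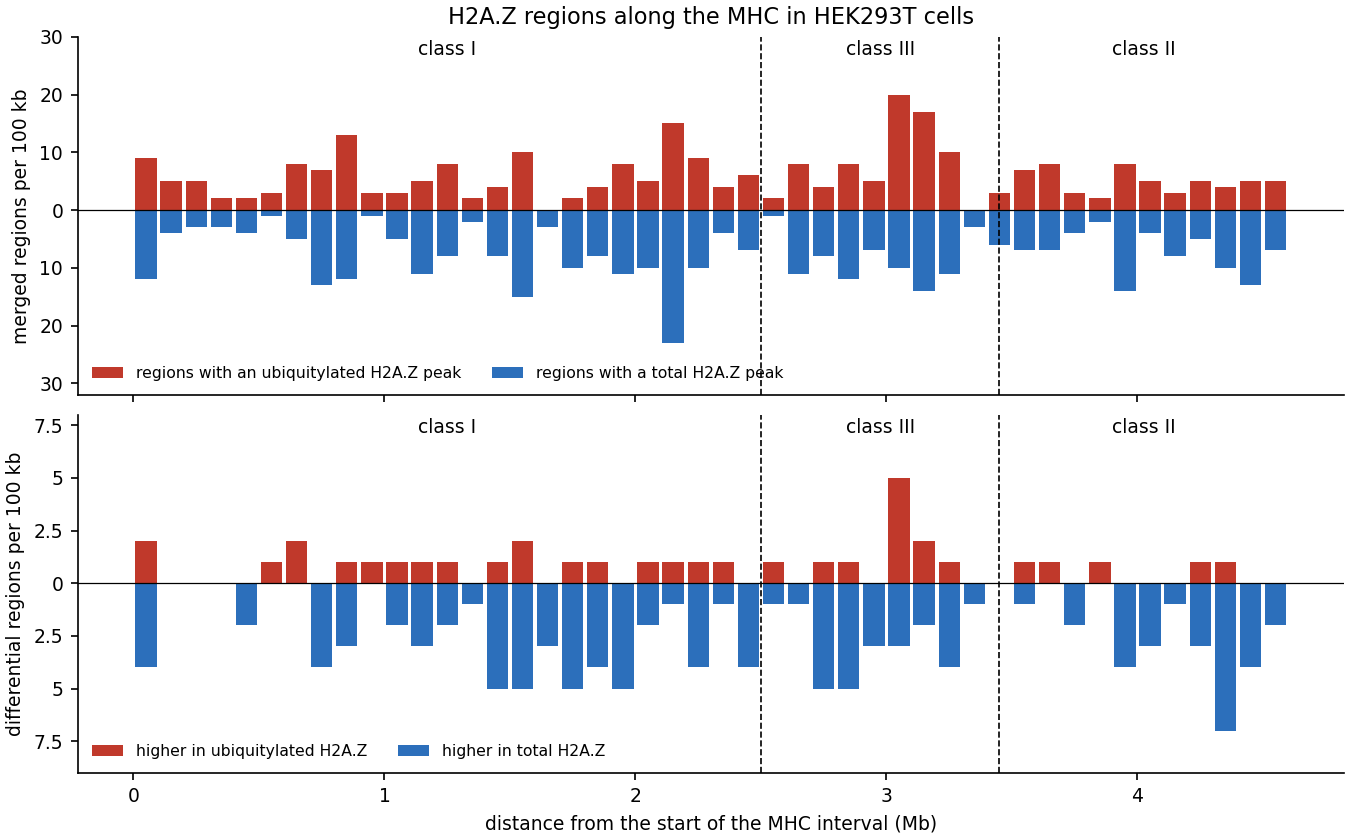
Regions per 100 kb along the MHC, by distance from the start of the interval at 28.9 Mb (x axis, Mb). The upper panel counts merged regions with a ubiquitylated (upward) or total (downward) H2A.Z peak, and the lower panel those higher in ubiquitylated (upward) or total (downward) H2A.Z in the authors' lists; dashed lines mark the class limits. The tallest upward bars in both panels lie at 31.9 to 32.0 Mb in class III, with 20 regions holding a ubiquitylated peak and 5 higher in ubiquitylated H2A.Z.

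Regions of the MHC were split by the lists that held them. Peaks of ubiquitylated H2A.Z alone made up 122 regions (25.5%, Wilson 95% interval 21.8 to 29.6%), peaks of total H2A.Z alone 205 (42.8%, 38.4 to 47.3%), and peaks of both lists 152 (31.7%, 27.7 to 36.0%). Over all regions these shares were 28.9, 29.2 and 41.9%. Class III had the highest share of regions with ubiquitylated peaks alone, 43 of 121 (35.5%, interval 27.6 to 44.4%), against 58 of 251 in class I (23.1%, 18.3 to 28.7%) and 21 of 107 in class II (19.6%, 13.2 to 28.1%). Regions with total peaks alone were more numerous than these in each class, with 47 (38.8%) in class III, 109 (43.4%) in class I and 49 (45.8%) in class II. The intervals of class III and class II for ubiquitylated peaks alone overlapped only between 27.6 and 28.1%, and no difference between classes was tested, because neighbouring regions are not independent and intervals cover counting error only.

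Counted by peaks, 156 of the 278 ubiquitylated peaks (56.1%, interval 50.2 to 61.8%) met a total H2A.Z peak by at least 1 bp, against 60.1% over the whole series. Of the 361 total peaks, 156 (43.2%, 38.2 to 48.4%) overlapped a ubiquitylated peak, against 59.8% over the whole series and 56.0% on the rest of chromosome 6. By class, 39 of 60 ubiquitylated peaks in class II (65.0%, 52.4 to 75.8%), 84 of 142 in class I (59.2%, 50.9 to 66.9%) and 33 of 76 in class III (43.4%, 32.9 to 54.6%) were shared. For total peaks the classes were closer together, with 39 of 88 in class II (44.3%), 84 of 193 in class I (43.5%) and 33 of 80 in class III (41.2%). The class III list of ubiquitylated peaks thus had the smallest shared part of the 3 classes, while the shared part of the total list was below that of the series in each class.

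Where a region held peaks of both lists, these lay nearly on top of each other. In part this is set by the definition, because only overlapping or touching peaks were joined into a region. In 146 of the 152 shared regions there was 1 peak of each list, and their midpoints were a median of 18.0 bp apart (75% within 48.4 bp, at most 382.5 bp). Their overlap covered a median of 85.5% of the merged region. The whole series had medians of 19.5 bp and 84.9%, so the shared regions of the MHC were like others in this respect. The ubiquitylated peak was the wider one in 62 and the total peak in 84 of the 146, with medians of 336 and 372.5 bp. In class I the ubiquitylated peak was wider in 31 and the total peak in 53 of 84, while in class II the numbers were 18 and 16.

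Region width followed the list membership, in part by construction, because a region of both lists is at least as wide as each peak it joins. Members with peaks of both lists had a median width of 440.5 bp, those with ubiquitylated peaks alone 322.5 bp and those with total peaks alone 267 bp. The corresponding medians over all regions were 425, 276 and 251 bp. Single peaks differed less, with medians of 345.5 bp for shared and 322.5 bp for unshared ubiquitylated peaks of the MHC. For its total peaks they were 374 and 267 bp. The ubiquitylated regions of class III were the wider ones among the classes, with a median of 354 bp, against 292.5 bp in class I and 298 bp in class II. At least 1 kb wide were 16 members. The widest of class II and of the MHC was chr6:32820524-32822360 (1837 bp), which joined 3 ubiquitylated peaks and 1 total peak. The widest of class III was chr6:32063400-32065192 (1793 bp), a single ubiquitylated peak with an IDR of 0.00545, and the widest of class I was chr6:30523147-30524617 (1471 bp), a single total peak with an IDR of 0.00105.

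**Figure D2:**
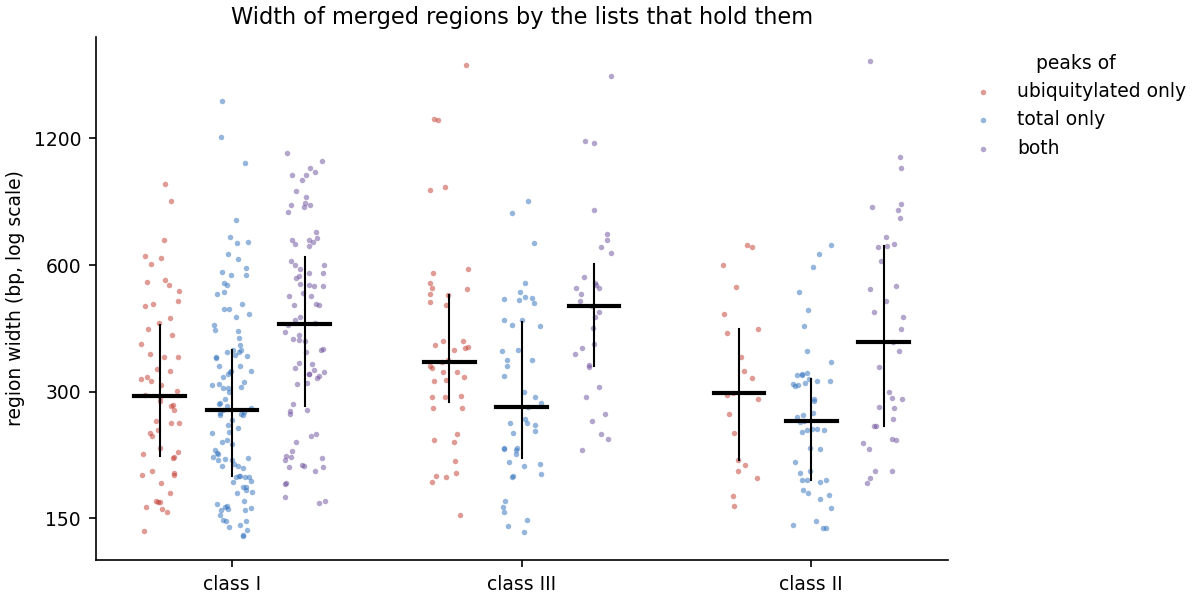
Width of each of the 479 merged regions (y axis, bp, log scale) by class and by the lists that hold a peak in it. Thick lines are medians and thin lines join the quartiles. Regions with peaks of both lists were the widest in each class, with medians of 435 bp in class I, 479 bp in class III and 393 bp in class II. By construction such a region is at least as wide as each peak it joins.

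The 6 peaks named here, those of lowest IDR per list, were all at shared regions. The ubiquitylated peaks with the lowest IDR, as deposited by the authors, were chr6:32374065-32374271 in class II (2.01e-06), chr6:30851316-30851925 in class I (1.35e-05) and chr6:32185704-32186160 in class III (2.23e-05). Each lay in a region of both lists and in neither differential list. Among total H2A.Z peaks the lowest IDR values were those of chr6:30325664-30326036 in class I (6.15e-06), chr6:29520951-29521947 in class I (7.56e-06) and chr6:33280284-33280676 in class II (1.1e-05). These too overlapped a peak of the other list, by 248, 887 and 324 bp. One of the 6, at 30.3 Mb, was higher in total H2A.Z, with a log2 fold change of -0.65 and an FDR of 0.0055 per the authors' deposited table.

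The authors' differential lists compared the 2 pull-downs, and most differential members were lower in ubiquitylated than in total H2A.Z. In the MHC 35 regions were higher in ubiquitylated H2A.Z (7.31%, Wilson interval 5.30 to 9.99%) and 112 were higher in total H2A.Z (23.4%, 19.8 to 27.4%) per the authors' deposited table, and 332 were in neither list. Over all 198179 regions 9.39% were higher in ubiquitylated and 12.1% higher in total H2A.Z, with 21.5% in either direction. The share higher in ubiquitylated H2A.Z was thus near the background, which lay within its interval, while the share higher in total H2A.Z was 1.93 times its background. Of the 147 differential members 23.8% were higher in ubiquitylated H2A.Z (17.6 to 31.3%), against 43.7% of all differential regions and 32.2% on the rest of chromosome 6. These differences were not tested. Fold changes are the authors' and relative to a normalization not given in the sources used here.

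All 3 classes had more regions higher in total H2A.Z. Class III had 11 higher in ubiquitylated (9.09%, 5.15 to 15.5%) and 25 higher in total H2A.Z (20.7%, 14.4 to 28.7%). Class I had 19 (7.57%, 4.90 to 11.5%) and 60 (23.9%, 19.0 to 29.5%), and class II 5 (4.67%, 2.01 to 10.5%) and 27 (25.2%, 18.0 to 34.2%). Among differential regions, those higher in ubiquitylated H2A.Z made up 30.6% in class III (18.0 to 46.9%), 24.1% in class I (16.0 to 34.5%) and 15.6% in class II (6.86 to 31.8%). The intervals of the 3 classes overlapped throughout. In class II the share higher in total H2A.Z rested in part on the tile from 32.85 to 33.35 Mb, with 18 of its 27 such regions. Without this tile it was 14.8% (7.96 to 25.7%). In class III it was 14.3% (7.95 to 24.3%) without the tile from 31.4 to 31.9 Mb, which held 15 of its 25. Both intervals hold the 12.1% of all regions. Each tile left out was the one with most calls in its class, so a lower share without it is in part built in.

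The stretches on either side differed from each other. Towards the chromosome end 6.60% of 409 regions were higher in ubiquitylated and 25.4% higher in total H2A.Z, values close to those of the MHC. Towards the centromere 4.78% of 691 regions were higher in ubiquitylated and 11.0% higher in total H2A.Z. Over the 524 windows of equal length the share higher in ubiquitylated H2A.Z had a median of 7.35% (quartiles 5.37 and 10.7%) and the share higher in total H2A.Z one of 14.2% (9.17 and 18.5%). The MHC thus lay near the middle of these windows in the share higher in ubiquitylated H2A.Z and above the upper quartile in the share higher in total H2A.Z. Of differential regions per window, a median of 34.4% were higher in ubiquitylated H2A.Z (quartiles 22.9 and 51.7%). The MHC, with 23.8%, lay between these quartiles, near the lower one.

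**Figure D3:**
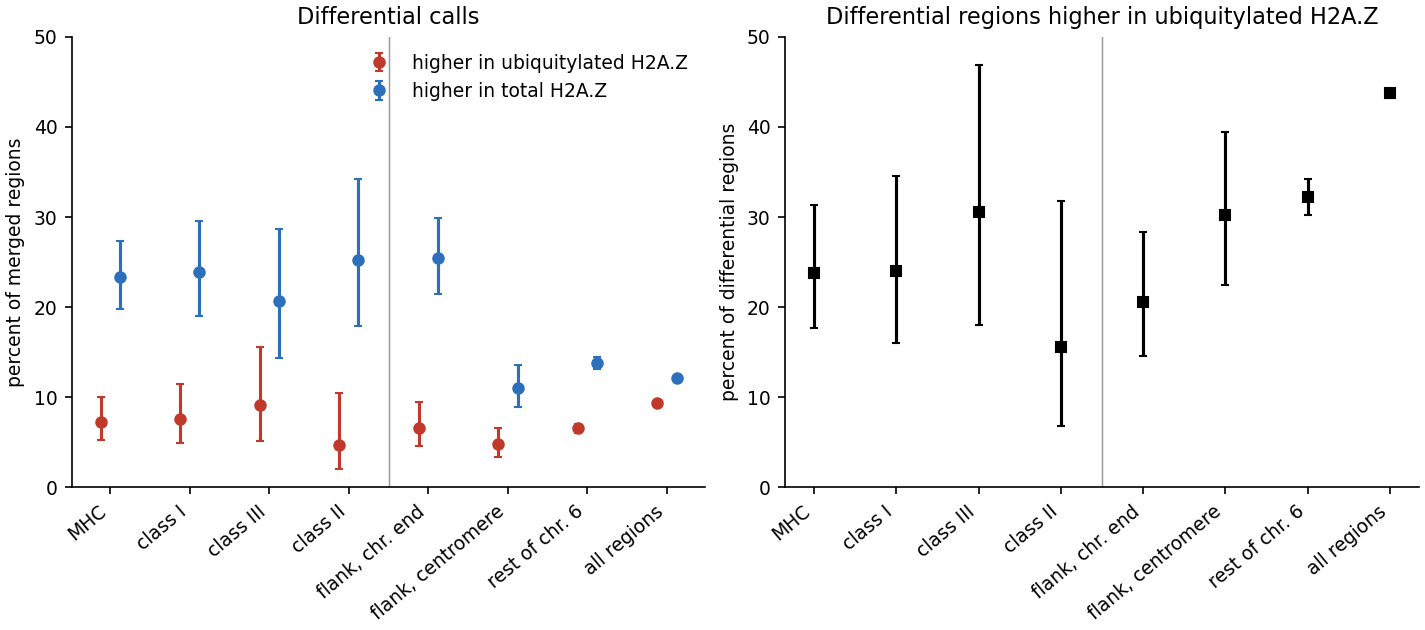
Share of merged regions higher in ubiquitylated or total H2A.Z (left, percent) and the part of differential regions called towards the ubiquitylated form (right, percent) in the MHC, its classes, the stretches of equal length on either side, the rest of chromosome 6 and all regions. Points are shares and bars Wilson 95% intervals for counting error; the share higher in ubiquitylated H2A.Z was 7.31% in the MHC, against 9.39% over all regions, and that higher in total H2A.Z was 23.4%, against 12.1%.

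Differential members mostly held a peak of their own list alone, 31 of 35 higher in ubiquitylated and 92 of 112 higher in total H2A.Z. Most differential regions of the whole series did so too, 13604 of 18614 and 17634 of 23960. Of the 122 members with ubiquitylated peaks alone, 31 (25.4%, 18.5 to 33.8%) were higher in ubiquitylated H2A.Z, close to the 23.8% over the whole series. Of the 205 members with total peaks alone, 92 (44.9%, 38.2 to 51.7%) were higher in total H2A.Z, against 30.5% over the whole series. The larger number of regions higher in total H2A.Z thus went with both a larger share of regions with total peaks alone and a larger share of these being called. This was not particular to the MHC. In the stretch of equal length towards the chromosome end 44.3% of regions had total peaks alone, and 48.6% of these were higher in total H2A.Z. Among the 152 members shared by the lists, 4 (2.63%) were called towards ubiquitylated and 20 (13.2%) towards total H2A.Z, against 5.97 and 7.52% over the whole series. In class III 0 of the 31 shared regions were higher in ubiquitylated H2A.Z (interval up to 11.0%) and 2 were higher in total H2A.Z. Calls in the direction of the other list numbered 0 of 122 members with ubiquitylated peaks alone (up to 3.05%) and 0 of 205 with total peaks alone (up to 1.84%). Over the whole series these shares were 0.13 and 0.083%. Peaks and calls come from the same samples, so calls against a region's only list are unlikely from the outset and these counts show nothing particular to the MHC.

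Per the authors' deposited table the 35 members higher in ubiquitylated H2A.Z had a median log2 fold change of 0.73 (range 0.37 to 1.35), against 0.68 for all such regions. The 112 members higher in total H2A.Z had a median of -0.81 (range -1.63 to -0.41), against -0.76 for all such regions per the authors' deposited table. Changes of at least 2-fold numbered 4 members towards ubiquitylated (0.835%) and 28 towards total H2A.Z (5.85%), where 1.47 and 2.39% of all regions passed. Class III contributed 11 of the 28, class I 12 and class II 5. The median of regions higher in total H2A.Z per the authors' deposited table was -0.95 in class III, -0.88 in class II and -0.74 in class I. In class III, 11 of 25 such regions thus changed at least 2-fold, against 12 of 60 in class I and 5 of 27 in class II. Over all regions the numbers were 4738 of 23960, and in the stretch of equal length towards the chromosome end 36 of 104. These differences were not tested. Members higher in ubiquitylated H2A.Z were wider, with a median of 493 bp, than those higher in total H2A.Z (377.5 bp) and those in neither list (291 bp), as over the whole series (507, 362 and 295 bp).

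In class I the 3 regions with the lowest FDR towards ubiquitylated H2A.Z were chr6:30431505-30432437 (log2 fold change 0.74, FDR 6.7e-05), chr6:31163100-31163729 (0.91, FDR 0.00061) and chr6:29943001-29943537 (0.79, FDR 0.0012) per the authors' deposited table. All 3 held a single ubiquitylated peak. Towards total H2A.Z they were chr6:31164924-31166133 (-1.10, FDR 8.6e-11), chr6:30364580-30365199 (-1.43, FDR 3.5e-09) and chr6:28984424-28985012 (-1.28, FDR 6.1e-09) per the authors' deposited table. Each held a single total peak, and the first had the lowest FDR of all members. The peak at chr6:30364580-30365199 had an IDR of 0.0406, near the limit of 0.05. The largest change of any member, -1.63 (FDR 3.3e-06) per the authors' deposited table, was at chr6:28948562-28948800. The second largest change of the MHC towards ubiquitylated H2A.Z, 1.07 (FDR 0.0018) per the authors' deposited table, was also in class I, at chr6:29795856-29796191, where a single ubiquitylated peak had an IDR of 0.0463.

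In class III the lowest FDR towards ubiquitylated H2A.Z was that of the 1793 bp region chr6:32063400-32065192 (log2 fold change 0.76, FDR 1e-06) per the authors' deposited table, the lowest of the MHC in that direction. It was followed there by chr6:32159063-32159254 (1.35, FDR 0.0026), which at 192 bp had the largest change of any member towards ubiquitylated H2A.Z per the authors' deposited table, and by chr6:31961866-31962440 (0.73, FDR 0.0034). Towards total H2A.Z the leading regions per the authors' deposited table were chr6:31865586-31866088 (-1.27, FDR 1.5e-07), chr6:31831010-31831442 (-1.53, FDR 3.5e-07) and chr6:31763814-31764257 (-1.36, FDR 2.5e-06). All 6 held a peak of one list alone. A further region, chr6:31926515-31926669, changed nearly as much as the second of these per the authors' deposited table (-1.51, FDR 0.00015).

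In class II the lowest FDR towards ubiquitylated H2A.Z per the authors' deposited table was that of chr6:32729289-32729951 (log2 fold change 0.68, FDR 0.00061), one of 4 members of both lists called in that direction. A stretch of 72.0 kb without a region of either list ended shortly before it. The others were chr6:32466334-32466631 (1.04, FDR 0.0017) and chr6:33282781-33283380 (0.58, FDR 0.011) per the authors' deposited table. Towards total H2A.Z the leading regions per the authors' deposited table were chr6:32861731-32862398 (-0.95, FDR 1.2e-05), chr6:32805503-32805995 (-0.76, FDR 6.3e-05) and chr6:33216317-33216786 (-0.91, FDR 0.00016). The widest member, chr6:32820524-32822360, was also higher in total H2A.Z per the authors' deposited table (-0.44, FDR 0.0024), although it held 3 ubiquitylated peaks.

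**Figure D4:**
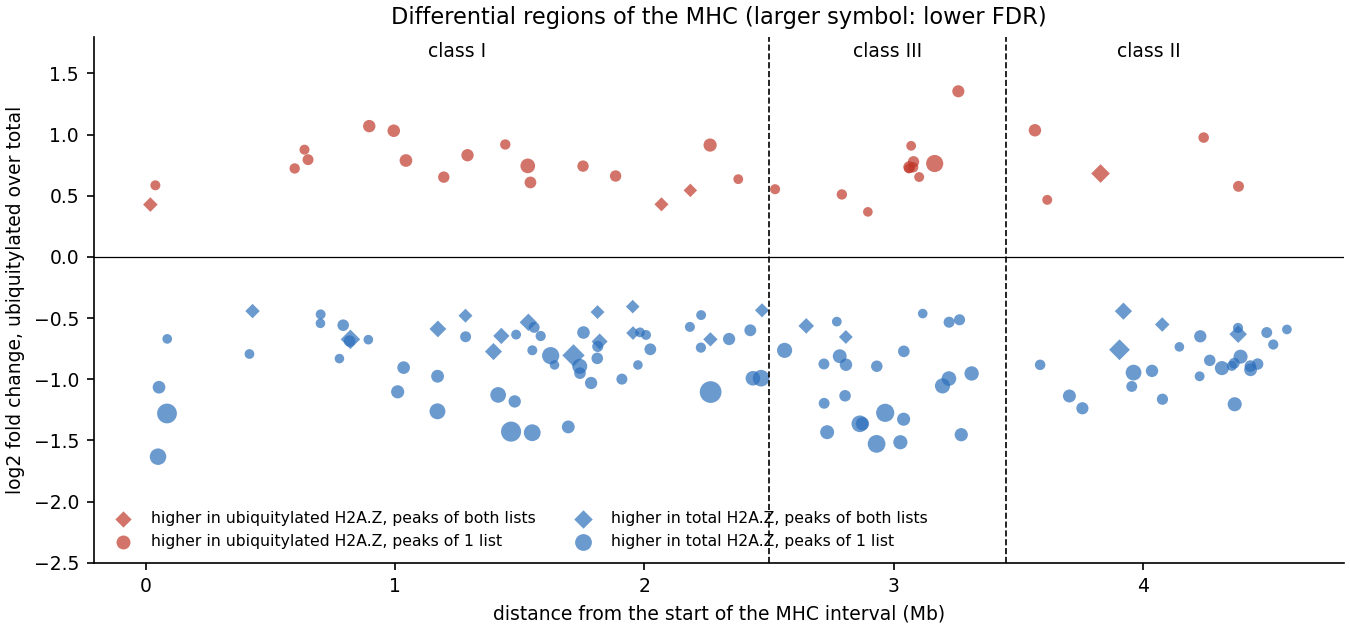
Log2 fold change of ubiquitylated over total H2A.Z per the authors' deposited table (y axis) for the 147 differential members, by distance from the start of the interval (x axis, Mb). Each symbol is a region, larger at lower FDR, with diamonds for regions of both lists and circles for those of 1 list; the 35 regions above 0 reach 1.35 and the 112 below 0 reach -1.63, and no values lie near 0 because the lists hold only called regions.

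The 147 differential members formed 26 series higher in ubiquitylated and 26 higher in total H2A.Z, where a series is an unbroken succession of differential regions in 1 direction. Of the ubiquitylated series 22 were single regions, against 4 of the total series. With 35 regions higher in ubiquitylated and 112 higher in total H2A.Z, the rarer direction would form shorter series in any mixed order, so these counts show no arrangement beyond the unequal numbers. Consecutive differential members had the same direction in 95 of 146 pairs (65.1%, 57.0 to 72.3%), against 72.5% over the whole series. These 2 percentages cannot be compared directly, because the share higher in ubiquitylated H2A.Z, 23.8 and 43.7% of differential regions, also sets how often neighbours match. The same limit holds for pairs of consecutive differential members less than 1 kb apart. Of 23 such pairs in the MHC, 21 shared a direction (91.3%), against 93.5% over the whole series. The exceptions were chr6:31163100-31163729, which was higher in ubiquitylated H2A.Z and lay 615 bp before a region higher in total H2A.Z (log2 fold changes 0.91 and -0.67 per the authors' deposited table), and chr6:33282781-33283380 in class II, which was higher in ubiquitylated H2A.Z and lay 768 bp after a region higher in total H2A.Z. Of 46 tiles of 100 kb, regions higher in ubiquitylated H2A.Z prevailed in 6 and regions higher in total H2A.Z in 31, 5 held equal numbers and 4 held no differential region. With 35 against 112 such regions, total H2A.Z would prevail in more tiles in any mixed order, so the tile counts show no arrangement either.

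Series higher in total H2A.Z were longest in class I and class II. In class I, 10 regions over chr6:30449696-30641538 (192 kb) had a median log2 fold change of -0.84 per the authors' deposited table. This stretch held 13 members in all, 10 of them with total peaks alone and 2 with ubiquitylated peaks alone. In class II, 10 regions over chr6:32805503-33130092 (325 kb) also had a median of -0.84 per the authors' deposited table, but among 31 members, 21 of which were in neither differential list. Towards the centromere, 2 further series of 7 regions each, chr6:33167582-33282012 and chr6:33291069-33477486, were separated by 1 region higher in ubiquitylated H2A.Z. In class III a series of 6 over chr6:31831010-31940718 had the lowest median log2 fold change of the series with at least 3 regions, -1.30 per the authors' deposited table.

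The longest series higher in ubiquitylated H2A.Z lay in class III directly after that one. It held 6 differential regions over chr6:31961171-32002248 (41.1 kb), with log2 fold changes from 0.65 to 0.91 and FDR values from 0.0034 to 0.04 per the authors' deposited table. This stretch held 20 members, of which 14 had ubiquitylated peaks alone, 5 had peaks of both lists and 1 had a total peak alone. Of the 14, 6 were called and 8 were in neither differential list. The next region higher in ubiquitylated H2A.Z was the 1793 bp region described above, after 1 region higher in total H2A.Z, chr6:32016165-32016491 (log2 fold change -0.46, FDR 0.049 per the authors' deposited table). The only other series of at least 3 regions in that direction was chr6:29496691-29550644 in class I, with 3 regions. Class III is known to hold a tandem duplication that includes C4A and C4B. How reads that match both copies were placed was not given in the sources used here. Whether the series lies in the duplication was not tested.

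**Figure D5:**
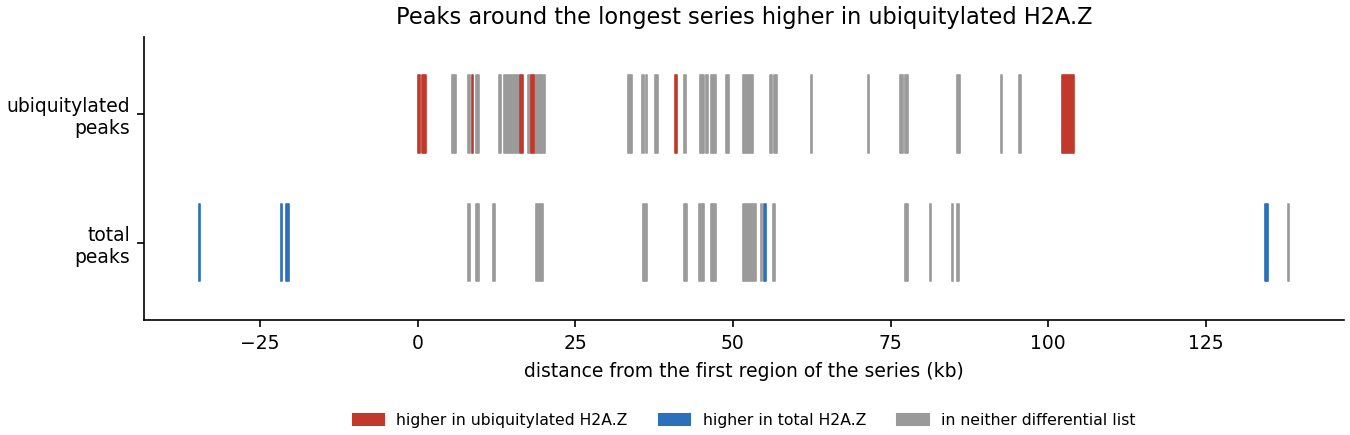
Ubiquitylated (upper row) and total (lower row) H2A.Z peaks around the longest MHC series higher in ubiquitylated H2A.Z, by distance from its first region (x axis, kb). Each bar is a peak, coloured by the authors' call for its merged region; the 6 regions of the series lie within 41.1 kb, and regions higher in total H2A.Z lie before and after them.

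At larger scale the split varied between neighbouring stretches. In tiles of 500 kb, 22 of 26 differential regions at 30.4 to 30.9 Mb and 18 of 20 at 32.9 to 33.4 Mb were higher in total H2A.Z. At 31.9 to 32.4 Mb there were 8 regions higher in ubiquitylated and 10 higher in total H2A.Z, and at 29.4 to 29.9 Mb 5 and 7. Some tiles with many regions held few calls. The tile at 31.0 to 31.1 Mb held 25 regions, 15 of them with a ubiquitylated and 23 with a total peak, but 1 region was called in each direction. By contrast, the tile at 30.5 to 30.6 Mb held 3 regions, all with total peaks alone and all higher in total H2A.Z, and at 33.2 to 33.3 Mb 1 of 11 was higher in ubiquitylated and 7 higher in total H2A.Z. These tiles were chosen with their values in view.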

How the data were processed

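ChIP-seq of ubiquitylated H2A.Z, total H2A.Z and histone H3 was done in HEK293T cells, after digestion of nuclei with micrococcal nuclease for 30 minutes per the labels' protocols. Bowtie, SAMtools, MACS2 and edgeR, with hg19 as the build, are listed by the authors in the submitters' processing notes. Versions, settings, the placement of reads with several matches and the normalization were not given in the sources used here. Per H2A.Z form the authors deposited 1 peak list, whose value per peak never exceeds 0.05 and was read as the IDR, grouped here with q-values; the files do not tell a local from a global IDR. The authors' other 2 deposited lists hold the differential regions, with an FDR of at most 0.05 and fold changes read as log2, since the authors' edgeR writes that scale; the base is not stated in the files. The H3 libraries are represented by no list of their own and were not analysed here. The lists name 24 chromosomes and none of the alternative MHC sequences.

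Starts were raised by 1 to give 1-based coordinates, 1 start in scientific notation was read as a whole number, and overlapping or touching peaks were merged. All 42574 differential regions matched a merged region exactly, so the merged regions served as background; which regions the authors tested is not stated. Tiles of 100 and 500 kb and windows of 4.6 Mb were counted by region midpoint. Shares have Wilson 95% intervals, which cover counting error only. No test was made on the lists, because they hold no values per library; procedures were checked on simulated intervals. Regions named are, per class, the 3 of lowest FDR in each direction and the widest, and for the MHC the 3 lowest IDR per list, the 3 largest changes in each direction and the longest series; others were chosen after their values were seen. The members and lists were chosen with earlier results of these data known. Gene names and order come from RefSeq (GRCh38.p14). Alternatives concerned merging, the IDR and FDR limits, overlap, fold, membership, class limits and single tiles. Scripts ran under Python 3.11.15 with pandas 2.3.3, numpy 2.4.6, matplotlib 3.10.9 and scipy 1.17.1.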

Additional observations from a re-analysis of the deposited data

How the results depend on the processing

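No paired analysis was possible because no file gives values per library, and leaving out a replicate was not run for the same reason. Of 94 alternatives over 24 values, 60 stayed within the counting interval (or, for numbers of regions, within 1.5 times) and 34 did not. Numbers of regions, other membership rules and class limits moved by 0.1 Mb stayed within these bounds. Differential regions higher in ubiquitylated H2A.Z stayed under 50% in all 22 alternatives. The whole series was at 43.7%, so staying under 50% does not set the MHC apart. In class III without its tile richest in calls the share was 44.4% (8 of 18), no lower than in the whole series. With values given for the MHC, class I, class III and class II in that order, an FDR under 0.01 left 3.34, 3.98, 3.31 and 1.87% of regions higher in ubiquitylated H2A.Z (5.16% over all regions). It left 14.4% of the MHC, 13.5% of class I and 15.0% of class II higher in total H2A.Z (7.09% over all regions). In class III 17.4% of differential regions (4 of 23) were then higher in ubiquitylated H2A.Z, against 42.1% over all regions. At 2-fold the shares towards ubiquitylated H2A.Z were 0.835, 0.797, 0.826 and 0.935% (1.47% over all regions). Towards total H2A.Z they were 5.85, 4.78, 9.09 and 4.67% (2.39% over all regions). Among 2-fold regions, 12.5% of the MHC (4 of 32), 14.3% of class I (2 of 14) and 8.33% of class III (1 of 12) were higher in ubiquitylated H2A.Z. Over all regions this part was 38.0%. Among regions of both lists, 2.63% of the MHC, 3.57% of class I and 0% of class III were higher in ubiquitylated H2A.Z, and 13.2, 16.7, 6.45 and 10.8% of the 4 areas were higher in total H2A.Z. The ubiquitylated part of differential regions was then 16.7% in the MHC (4 of 24) and 0% of 2 in class III. Fewer regions pass the FDR and fold limits by construction, and fewer peaks pass the stricter overlap. Among regions of both lists the whole series fell too as a share of merged regions, from 9.39 to 5.97% higher in ubiquitylated H2A.Z. Its share higher in total H2A.Z fell from 12.1 to 7.52%. Without their tile richest in calls, 14.3% of class III and 14.8% of class II were higher in total H2A.Z (12.1% over all regions). With an overlap of 50% of both peaks, 49.3% of ubiquitylated and 38.0% of total peaks of the MHC were shared. At an IDR of at most 0.01, 48.0% of ubiquitylated peaks of the MHC and 51.0% of those of class II were shared. Sharing under these 2 settings was not computed outside the MHC, so these values cannot be set beside the whole series. For the regions of both lists, the tiles and the IDR limit the cause was not tested.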
